A study of Mus musculus with 6 samples.

Results

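Heat shock proteins and their DNAJ and BAG co-chaperones were examined in whole adrenal glands. Members were all genes whose symbol on the array platform belongs to the Hspa, Hspb, Hsp90, Hspd1, Hspe1, Hsph1, Dnaja, Dnajb, Dnajc or Bag families, with the heat shock factor Hsf2. These rules gave 75 of the 19505 named genes on the array, each with 1 probe set. Hspa8, Hsp90ab1, Dnaja1 and Hsf1 were not analysed here.

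Mutant mice (n = 3) carried floxed alleles of both Mst1 and Mst2 with Nr5a1-cre, a transgene that drives Cre in cells making steroids. Control mice (n = 3) carried the same floxed alleles without Cre. All were untreated females aged 2 months, and 1 array was run per animal on RNA of whole glands. These also hold capsule, vessels, chromaffin cells and other cells, and which of them Cre reached was not measured. In such bulk tissue, fewer cells of a type and less RNA per cell cannot be told apart. The 8 adrenal cortex markers all lay above the background range, the span of signals of probe sets with no target (2.53 to 7.32 log2 units), with list means of 17.94 to 18.07 in mutants and 18.06 to 18.11 in controls. Stk4, which encodes MST1, measured 8.14, 8.36 and 8.46 in mutants and 8.32, 8.66 and 8.94 in controls (log2 change -0.32, SE 0.19, limma adjusted p = 0.623). Its groups overlapped. Whether its probes lie inside the deleted part is unknown, so it does not check the genotype labels. Stk3, which encodes MST2, was not analysed here. All values below are log2 signals, which compare animals within a gene and do not rank genes by abundance.

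Chaperones bind unfolded stretches of other proteins and keep them from clumping. HSP70 proteins do this in cycles of ATP binding and hydrolysis, which DNAJ proteins start by bringing in the client and stimulating hydrolysis, and which BAG and HSP110 proteins help reset by promoting release of ADP. Heat shock factor HSF1 raises transcription of the inducible members when unfolded proteins build up, by binding inverted repeats of the letters GAA, called heat shock elements, whereas constitutive members serve folding at rest. In rats, restraint is known to raise HSP70 transcripts in the adrenal cortex through ACTH.

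Upstream sequences of 6 members are shown because each holds a pair of heat shock element units, as most inducible members with a sequence did, and because Hspa1a and Hspa1b are nearly alike in theirs. They are RefSeq promoter windows of assembly GRCm38.p6, written 5′ to 3′ on the gene's own strand, with each match to GAANNTTC or TTCNNGAA in capitals. The stretches are Hspa1a at chr17:34972157-34972406 (minus strand), Hspa1b at chr17:34959239-34959488 (minus strand), Hsph1 at chr5:149636326-149636405 (minus strand), Hspb1 at chr5:135887776-135887855 (plus strand), Dnaja4 at chr9:54699452-54699531 (plus strand) and Hspe1 at chr1:55088028-55088107 (plus strand).
Hspa1a: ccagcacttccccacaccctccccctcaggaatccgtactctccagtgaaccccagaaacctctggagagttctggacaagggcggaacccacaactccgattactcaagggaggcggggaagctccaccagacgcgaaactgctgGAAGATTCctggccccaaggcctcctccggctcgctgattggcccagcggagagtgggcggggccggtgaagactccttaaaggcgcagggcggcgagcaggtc
Hspa1b: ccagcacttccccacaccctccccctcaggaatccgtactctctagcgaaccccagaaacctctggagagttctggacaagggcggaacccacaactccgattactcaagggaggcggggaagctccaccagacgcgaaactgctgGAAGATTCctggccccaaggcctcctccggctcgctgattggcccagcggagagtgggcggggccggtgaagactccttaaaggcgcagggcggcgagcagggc
Hsph1: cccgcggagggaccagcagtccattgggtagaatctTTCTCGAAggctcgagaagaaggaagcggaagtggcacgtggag
Hspb1: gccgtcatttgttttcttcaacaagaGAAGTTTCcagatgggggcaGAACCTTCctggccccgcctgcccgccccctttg
Dnaja4: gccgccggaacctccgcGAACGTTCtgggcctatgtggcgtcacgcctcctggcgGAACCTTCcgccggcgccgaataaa
Hspe1: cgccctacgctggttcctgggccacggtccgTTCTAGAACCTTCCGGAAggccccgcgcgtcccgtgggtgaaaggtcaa

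Over the 250 bases before the start, Hspa1a and Hspa1b differed at 3 bases, an identity of 98.8%, and both had a match that began at base -104, counted backwards from the transcription start. The coding sequences of these genes are also nearly identical, so their probe sets may read each other's transcripts and the pair is uncertain as 2 separate measurements. Hspd1 and Hspe1 lie head to head: their windows share 285 bases, and the capital stretch of Hspe1, 18 bases with 3 overlapping matches, stands in the window of Hspd1 on the opposite strand.

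No member passed an adjusted p of 0.05 (0 of 75; limma's moderated test adjusted by Benjamini-Hochberg over 22206 probe sets, of which 0.0721% passed). The inducible HSP70 genes Hspa1a and Hspa1b, with Hsph1 and Dnajb1, had lower mean signals in mutant glands, whereas Hspa12a and the small heat shock protein gene Hspb1 had higher ones. At an unadjusted p under 0.05 there were 13 members, or 17.3%, against 10.4% of all probe sets tested. Of these members 10 were lower in mutants, 13.3% of all members against 4.96% of probe sets, and 3 were higher, 4% against 5.42%. The count of 13 was 8 without control 1 and 7 without control 2. The share of all probe sets in those fits was not counted, so these counts cannot be set against it.

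The 3 mutants lay wholly on one side of the 3 controls for 15 members, or 20%, where 16.4% of probe sets did. Of these, 11 had the mutants below (14.7% against 8.36%) and 4 had them above (5.33% against 8%). A log2 change above 0 was found for 30 members, 40% against 48% of probe sets. The median change was -0.06 for the members and -0.01 for all probe sets. Most changes were small, with 53 members under 1.2-fold and 3 at 2-fold or more, namely Hspa12a, Hspa1a and Hspa1b. The shares of all probe sets at these folds were not counted, so these 2 counts cannot be set against them. Both group means of 19 members lay within the background range, where a change would be understated.

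**Figure D1:**
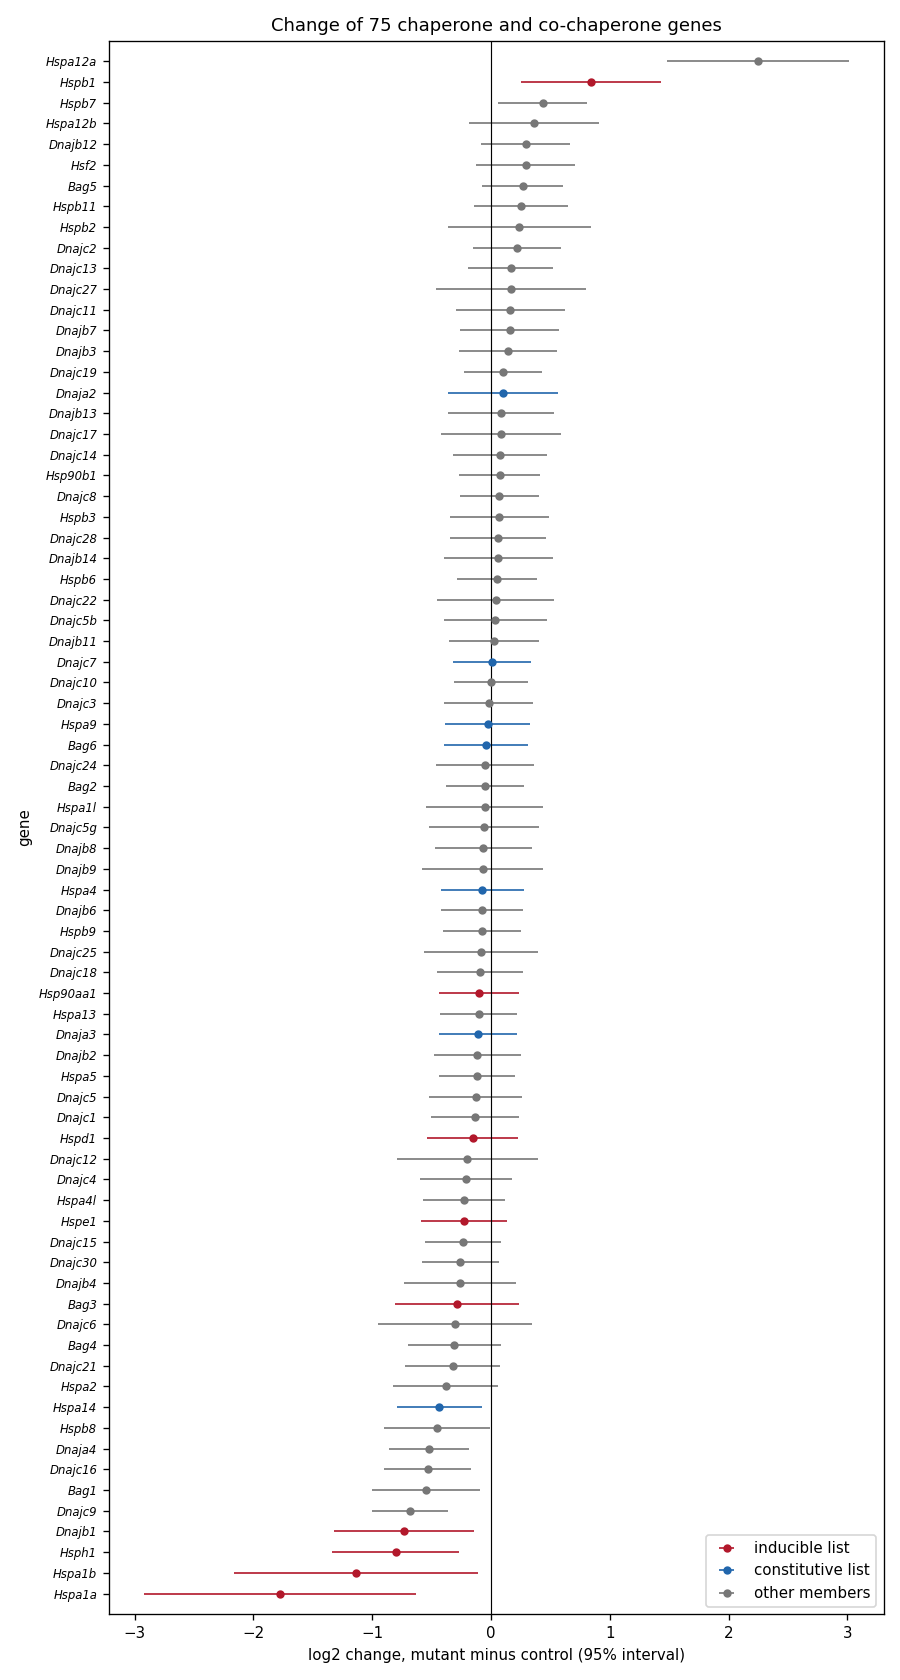
Log2 change, mutant minus control, of the 75 members (horizontal axis; points with 95% intervals of the limma fit), ordered by size. Red marks the inducible list, blue the constitutive list and grey the other members. Hspa12a (2.25) stands at the top and Hspa1a (-1.78) at the bottom, and most intervals span 0.

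Hspa1a (Entrez 193740) encodes the main stress-inducible cytosolic HSP70. It measured 9.49, 10.21 and 11.20 in mutant glands and 12.30, 12.78 and 11.15 in control glands. Mutant 3 and control 3 had nearly the same signal, so the groups overlapped, while the other mutants lay far below the other controls. Group means were 10.30 ± 0.86 in mutants and 12.08 ± 0.84 in controls (SD, n = 3 each), a measured 3.42-fold lower signal (log2 change -1.78, SE 0.50, limma adjusted p = 0.284).

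Hspa1b (Entrez 15511) encodes a protein almost identical to that of Hspa1a. It measured 10.41, 10.79 and 11.61 in mutants and 12.27, 12.84 and 11.12 in controls, again with mutant 3 above control 3. Its log2 change was -1.14 (SE 0.45, limma adjusted p = 0.437). Hspa1a minus Hspa1b was -0.92, -0.58 and -0.40 in mutants, against 0.03, -0.06 and 0.03 in controls. The difference between the pair was thus lower in every mutant than in any control, and its size in either group has no meaning, since each probe set has its own affinity. Hspa1l, the neighbouring HSP70 gene of spermatids, stayed within the background range in both groups (log2 change -0.05, SE 0.22).

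Hsph1 encodes HSP110, which resets HSP70 by releasing its ADP. It measured 12.42, 12.93 and 13.18 in mutants and 13.68, 13.91 and 13.35 in controls, and every mutant lay below every control. Its log2 change was -0.80 (SE 0.23, limma adjusted p = 0.302). The related gene Hspa4 differed by -0.07 (SE 0.15, 95% interval -0.42 to 0.28), and Hspa4l by -0.22 (SE 0.15).

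Dnajb1 encodes the inducible cytosolic DNAJ partner of HSP70. It measured 11.12, 11.33 and 11.36 in mutants and 12.23, 12.38 and 11.39 in controls. Controls 1 and 2 were high, and control 3 stood only just above the mutants. The log2 change of -0.73 (SE 0.26, limma adjusted p = 0.388) was -1.03 without control 3 and -0.54 without control 2.

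**Figure D2:**
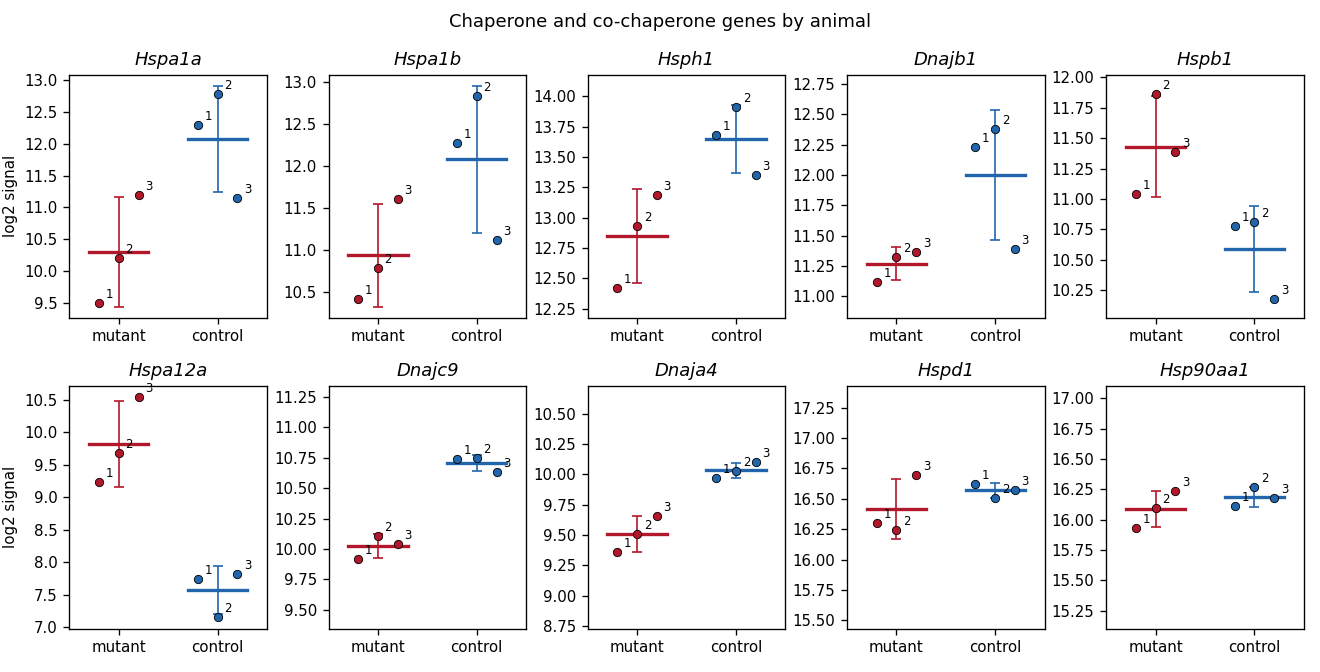
Log2 signal (vertical axes, each on its own range) of 10 members in mutant (red) and control (blue) glands. Points are animals with their numbers, long bars are means and whiskers are SDs. Control 3 sits close to the mutants for Hspa1a, Hspa1b and Dnajb1, while Hspa12a, Hspb1, Dnajc9 and Dnaja4 separate the groups and Hspd1 and Hsp90aa1 do not.

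Hspa12a (Entrez 73442) had the smallest p of all members. It encodes a distant HSP70 relative with an atypical ATPase domain. It measured 9.24, 9.67 and 10.55 in mutants and 7.75, 7.15 and 7.82 in controls, so every mutant lay above every control. Means of 9.82 ± 0.67 in mutants and 7.57 ± 0.37 in controls (SD, n = 3 each) gave a measured 4.75-fold higher signal (log2 change 2.25, SE 0.33, 95% interval 1.48 to 3.01). Its limma adjusted p of 0.0593 missed the threshold. Under 4 of the alternative settings it passed: with only probe sets above the median level (adjusted p = 0.034), with trend and robust variance (0.00919), with array weights (0.0459) and with the immediate early list mean as a covariate (0.031). Over all alternatives the adjusted p ran from 0.00919 to 0.244. Hspa12b, its paralogue of endothelial cells, was dim, with both group means in the background range (log2 change 0.36, SE 0.24).

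The other HSP70 genes showed smaller differences. Hspa14, which encodes a ribosome-bound HSP70, measured 9.27, 9.47 and 9.37 in mutants and 9.91, 9.91 and 9.60 in controls (log2 change -0.43, SE 0.16, limma adjusted p = 0.39). Hspa2, known for its role in spermatogenesis, differed by -0.38 (SE 0.19, limma adjusted p = 0.544), with mutant 3 above control 3. Hspa9, the mitochondrial HSP70, differed by -0.03 (SE 0.16, 95% interval -0.39 to 0.33).

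HSP90 genes and the mitochondrial chaperonin did not pass. Hsp90aa1, the inducible cytosolic HSP90, measured 15.94, 16.09 and 16.23 in mutants and 16.12, 16.27 and 16.18 in controls (log2 change -0.10, SE 0.15, 95% interval -0.44 to 0.24). Hspd1 and Hspe1 encode HSP60 and its lid HSP10. Hspd1 measured 16.30, 16.24 and 16.70 in mutants and 16.63, 16.50 and 16.58 in controls, and the groups overlapped (log2 change -0.15, SE 0.17). Hspe1 had a log2 change of -0.23 (SE 0.16), with mutants at 13.25 to 13.65 and controls at 13.62 to 13.75. Whether these probes were saturated was not assessed.

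Small heat shock proteins hold unfolded clients without ATP. Of 8 members with an Hspb symbol 6 had positive changes, with a median of 0.16, and 5 had both group means in the background range. They were listed by symbol alone, among them Hspb11 (log2 change 0.25), and not by protein family. Hspb1, which encodes HSP25 of the mouse, measured 11.04, 11.87 and 11.39 in mutants and 10.78, 10.81 and 10.18 in controls. Every mutant lay above every control, and the measured fold was 1.79 (log2 change 0.84, SE 0.26, limma adjusted p = 0.315). Hspb8, which works with BAG3 in clearing misfolded proteins, lay the other way, at 12.12, 12.54 and 12.77 in mutants and 12.92, 13.07 and 12.79 in controls (log2 change -0.45, SE 0.20, limma adjusted p = 0.477). This change was -0.27 without mutant 1. Mutant 3 and control 3 had almost the same signal. Hspb7, a heart and muscle gene, had a log2 change of 0.44 (SE 0.16) within the background range, and Hspb6, a muscle relative with a bright signal here, one of 0.05 (SE 0.15).

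Among the DNAJ genes, Dnajc9 and Dnaja4 had the smallest p-values. Dnajc9 encodes a nuclear J-domain protein that chaperones histones H3 and H4. It measured 9.92, 10.11 and 10.04 in mutants and 10.74, 10.75 and 10.63 in controls, and the gap between the groups was wider than the range within either (log2 change -0.68, SE 0.14, limma adjusted p = 0.147). Dnaja4, a cytosolic partner of HSP70, measured 9.36, 9.51 and 9.65 in mutants and 9.97, 10.02 and 10.10 in controls (log2 change -0.52, SE 0.15, limma adjusted p = 0.281). Dnajc16 lay lower too, at 7.40 to 7.62 in mutants and 7.89 to 8.26 in controls (log2 change -0.53, SE 0.16). Dnajc21, a factor of ribosome assembly (-0.32, SE 0.17), and the mitochondrial Dnajc30 (-0.26, SE 0.14) had the mutants below the controls without an unadjusted p under 0.05. Unlike Hspa1a, neither Dnajc9 nor Dnaja4 had control 3 near the mutants.

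BAG proteins bind the ATPase domain of HSP70. Bag1, which also links HSP70 to the proteasome, measured 11.20, 11.51 and 11.49 in mutants and 12.11, 12.16 and 11.57 in controls (log2 change -0.55, SE 0.20, limma adjusted p = 0.398). Control 3 again lay close to the mutants. Bag3, an HSF1 target that feeds clients into autophagy, measured 14.96, 14.43 and 15.29 in mutants and 15.25, 15.30 and 14.99 in controls, with overlap (log2 change -0.28, SE 0.23). It was -0.05 without mutant 2 and -0.48 without mutant 3, so its size rested on single animals. Bag4, a silencer of death receptors, differed by -0.31 (SE 0.17), and Bag5 by 0.27 (SE 0.15). Hsf2, the partner factor of HSF1, measured 8.65, 8.84 and 9.21 in mutants and 8.64, 8.48 and 8.72 in controls (log2 change 0.29, SE 0.18, limma adjusted p = 0.643).

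Chaperones of the endoplasmic reticulum had changes in both directions. Of 11 members 4 were higher and 7 lower, 0 had an unadjusted p under 0.05 (10.4% of probe sets did), and the median was -0.02. A count of 0 among so few genes is close to that share. Hspa5, the main HSP70 of that compartment, measured 16.54, 16.56 and 16.76 in mutants and 16.72, 16.73 and 16.75 in controls (log2 change -0.12, SE 0.14, 95% interval -0.44 to 0.21). Hsp90b1, its HSP90, had a log2 change of 0.07 (SE 0.15). Of 8 mitochondrial members 2 were higher and 6 lower, with a median of -0.13, and the mutants lay below the controls for 2 of them, Dnajc15 and Dnajc30, as for 8.36% of probe sets. Of 9 testis genes 8 were within the background range, and the 5 dimmest members, Hspb9, Dnajc22, Dnajb3, Dnajb13 and Hspb3, had changes of -0.08 to 0.14.

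The inducible and constitutive members were then set side by side. The inducible list was Hspa1a, Hspa1b, Hsph1, Hsp90aa1, Hspb1, Dnajb1, Bag3, Hspd1 and Hspe1. Of these 9 genes 8 had negative changes, Hspb1 being the other, with a median of -0.28. The 7 constitutive genes were Hspa4, Hspa9, Hspa14, Dnaja2, Dnaja3, Dnajc7 and Bag6, of which 5 had negative changes, with a median of -0.04. Mean log2 signal of the inducible list was 12.77, 13.04 and 13.40 in mutants and 13.67, 13.83 and 13.17 in controls, and that of the constitutive list was 12.02, 12.15 and 12.17 in mutants and 12.20, 12.22 and 12.17 in controls. The inducible minus constitutive difference was 0.75, 0.89 and 1.24 in mutants and 1.47, 1.62 and 1.001 in controls, so mutant 3 exceeded control 3. Between group means this difference changed by -0.40, and by -0.58 without control 3 or -0.28 without control 2. Hspa1a (-1.78) and Hspa1b (-1.14) had the largest changes of the inducible list and weighed most on its mean. They may not be 2 separate measurements, so the mean is not a shift shared evenly by the list.

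**Figure D3:**
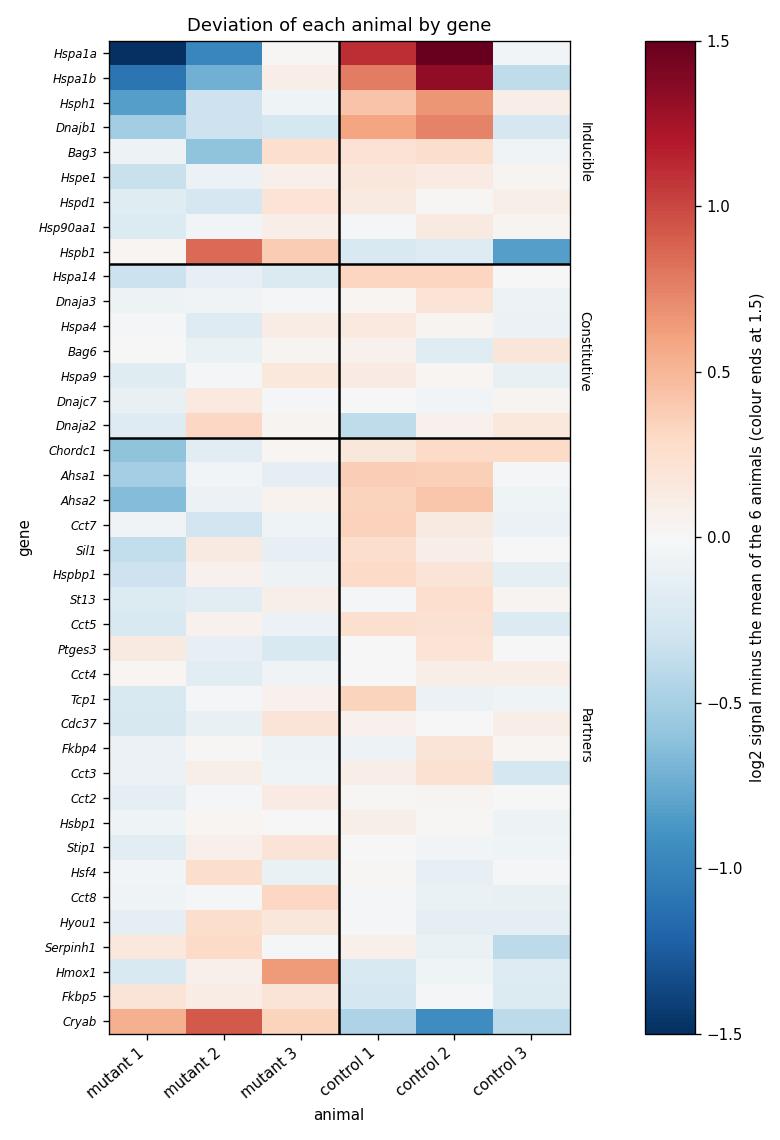
Log2 signal of each animal minus the mean of the 6 animals (colour, red above and blue below, ending at 1.5 log2 units) for the inducible list, the constitutive list and the partner genes, each sorted by change. Among inducible genes mutants 1 and 2 are blue and controls 1 and 2 red for Hspa1a, Hspa1b, Hsph1 and Dnajb1. The partner gene Cryab is the reverse, as is Hspb1 except that its mutant 1 lies near the mean. The constitutive rows are pale.

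The animals differed within groups as well. Among the 10 lower members with an unadjusted p under 0.05, mutant 1 was the lowest mutant for 9. Mutant 3 was the highest mutant for 6 of them, control 3 the lowest control for 8 and control 2 the highest for 7. Over all 75 members mutant 1 was the lowest mutant for 45 and mutant 3 the highest mutant for 39. Control 3 was the lowest control for 38 of the 75 and control 2 the highest for 31. The 10 were chosen on values of the same arrays, and these orders were not counted over all probe sets. Immediate early genes, which respond to handling within minutes, had list means of 10.25, 10.55 and 10.92 in mutants and 10.72, 10.58 and 10.61 in controls, with 2 of 9 higher in mutants. Mutant 1 was thus the lowest and mutant 3 the highest mutant in this list and for Hspa1a. The controls did not share an order, since control 2 had the highest Hspa1a (12.78) and the lowest list mean (10.58) among them. The part of handling was not tested. With the immediate early list mean as a covariate the Hspa1a change was -1.63 (limma adjusted p = 0.279). The intron control signal, a sign of RNA quality, was 5.73, 5.45 and 5.71 in mutants and 5.47, 5.40 and 5.84 in controls, highest in control 3. With the intron control signal as a covariate the Hspa1a change was -1.635 (limma adjusted p = 0.308).

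Markers of other cell types are given beside these values, and 0 in any list passed after adjustment, where 0.0721% of probe sets did. Of 10 adipocyte markers 9 had positive changes, with list means of 9.17 to 12.06 in mutants and 8.18 to 10.69 in controls and 2 markers with both means in the background range. The adipocyte means of single animals were 12.06, 9.69 and 9.17 in mutants and 8.18, 9.66 and 10.69 in controls. Mutant 1 and control 3 had the highest mean of their groups and also the lowest Hspa1a. Mutant 2 and control 2 had nearly the same adipocyte mean, with Hspa1a at 10.21 and 12.78. With the adipocyte mean as a covariate the Hspa1a change was -1.41 (limma adjusted p = 0.358) and that of Hspa1b -0.85 (limma adjusted p = 0.591). The part of fat in the values of Hspa1a and Hspa1b was not tested.

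All 5 endothelial markers had positive changes (list means 13.12 to 13.18 in mutants and 12.50 to 12.77 in controls), as did all 6 fibroblast markers (10.77 to 11.73 in mutants and 10.23 to 10.82 in controls), and 0 of either list had both means in the background range. Of 9 smooth muscle markers 6 had positive changes (8.48 to 8.82 in mutants and 8.15 to 8.42 in controls), with 4 in the background range, and all 8 skeletal muscle markers lay in that range. All 4 macrophage markers had positive changes (9.83 to 10.41 in mutants and 9.84 to 9.88 in controls), and 3 of 6 kidney markers did, 5 of them in the background range. All 6 chromaffin markers had negative changes (14.09 to 14.23 in mutants and 14.03 to 15.16 in controls). At an unadjusted limma p under 0.05, 4 of the 5 endothelial and 3 of the 6 fibroblast markers were higher in mutants and 0 lower. Smooth muscle markers had 3 higher and 1 lower, macrophage markers 1 higher, and the adipocyte, skeletal muscle, kidney and chromaffin lists 0. Of all probe sets 5.42% were higher and 4.96% lower. The part of these cell types in the values of Hspb1, Hspb8 and Hspa12a was not tested.

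Partner genes outside the families were taken from a list of 26 co-chaperones, chaperonin subunits and heat shock factor targets, of which 24 were measured. None passed after adjustment (0 of 24 against 0.0721% of probe sets), 8 had positive and 16 negative changes, and the median was -0.10. At an unadjusted p under 0.05 there were 2 higher and 2 lower of the 24, where 5.42% and 4.96% of probe sets were. Cryab, the small heat shock protein alpha B-crystallin, measured 11.35, 11.75 and 11.17 in mutants and 10.37, 9.89 and 10.43 in controls. Every mutant lay above every control, as for Hspb1 (log2 change 1.19, SE 0.21, limma adjusted p = 0.0995). Fkbp5, a glucocorticoid-responsive HSP90 partner, was also higher in each mutant, at 13.41, 13.32 and 13.40, against 12.95, 13.18 and 12.998 in controls (log2 change 0.33, SE 0.14, limma adjusted p = 0.47).

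Chordc1 and Ahsa1, both co-chaperones of HSP90, were the 2 lower partners at an unadjusted p under 0.05. Chordc1 measured 11.21, 11.65 and 11.85 in mutants and 11.98, 12.10 and 12.11 in controls (log2 change -0.49, SE 0.19, limma adjusted p = 0.419). Ahsa1, which activates the HSP90 ATPase, measured 11.74, 12.21 and 12.11 in mutants and 12.62, 12.60 and 12.22 in controls (log2 change -0.46, SE 0.19, limma adjusted p = 0.452). Its relative Ahsa2 had a change of the same size (-0.46, SE 0.22, limma adjusted p = 0.536) with overlapping groups. Serpinh1, the collagen chaperone HSP47, had a log2 change of 0.28 (SE 0.17).

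Promoter windows were available for 62 of the 75 members, and the 250 bases before the start were searched for GAANNTTC or TTCNNGAA, each of which reads the same on both strands. A match stood in 13 of these 62 genes (21%), against 14.5% of all genes with a window. In the inducible list 6 of 8 genes had one (Hspa1a, Hspa1b, Hsph1, Hspb1, Hspd1 and Hspe1), in the constitutive list 0 of 6. Hspd1 and Hspe1 hold the same stretch, and Hspa1a and Hspa1b nearly the same window, so these genes are not independent counts. The remaining inducible genes with a window, Dnajb1 and Bag3, had no match in these letters, and neither had Hspa12a or Dnajc9. The longer motif GAANNTTCNNGAA, whose other strand reads TTCNNGAANNTTC and which contains both short motifs, stood in 3 of 62 members (4.84%) and 0.514% of all genes. Hspd1 and Hspe1 were among these members through the same stretch. Genes with a match had changes in both directions and near 0, among them Hspa1a (-1.78), Hspb1 (0.84), Hspb6 (0.05) and Dnajb6 (-0.07). A match is a description of the sequence and not a measured binding site.

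**Figure D4:**
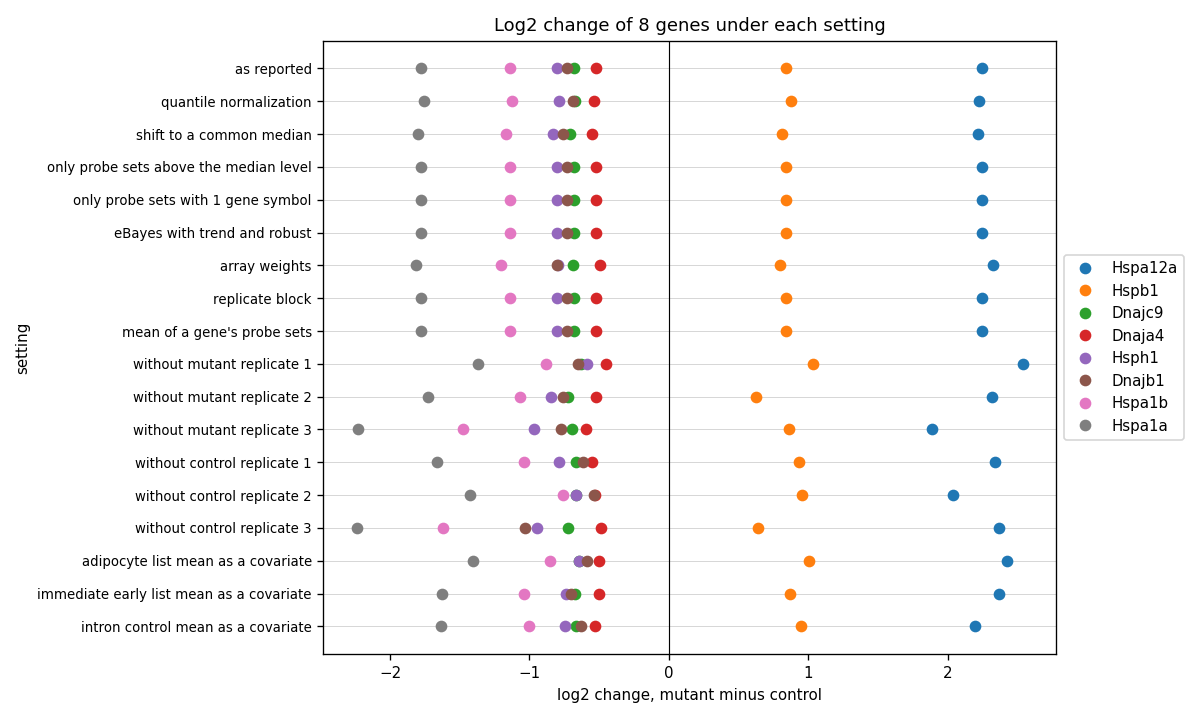
Log2 change, mutant minus control (horizontal axis), of 8 members under each processing setting (rows), 1 colour per gene. Each gene stays on its side of 0 in every row, with Hspa1a between -2.24 and -1.37 and Hspa12a between 1.88 and 2.54.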

How the data were processed

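RNA of whole adrenal glands from 3 mutant and 3 control mice was measured on Affymetrix whole-transcript arrays. The authors deposited 1 log2 signal per probe set and animal, made with Transcriptome Analysis Console 4.0 according to the submitters' processing notes. The sources used here do not give the background correction or the normalization between arrays, which could remove a change common to most genes. Control probe sets (6640) were left out, leaving 22206, of which 19572 had 1 gene symbol in the platform annotation, 0 several and 2634 none.

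Mutant minus control was fitted with limma 3.58.1 in R 4.3.3 (lmFit and eBayes, no covariates, two-sided, Benjamini-Hochberg over all 22206 probe sets, threshold 0.05). The fit was tested on simulated data. Folds are 2 raised to the size of the log2 change, and SEs and 95% intervals are those of the fit. List means are described without a test. Median array signals lay between 6.76 and 6.83, and the number of animals limits the precision.

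Members and lists were chosen with earlier results of these data known. Values were described for 13 fixed members, the 12 further members of smallest p, and the 5 each of largest spread, highest and lowest signal, 31 in all. Other members were named after their values were seen, as family relatives or to complete counts. Of the partner list, those of smallest p were named. Hspa8, Hsp90ab1, Hsf1, Dnaja1, Stub1, Cct6a and Stk3 were not analysed here. Alternatives were other normalizations, filters, variance models, covariates, a replicate block and each animal left out.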

Additional observations from a re-analysis of the deposited data

How the results depend on the processing

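The count of members past the adjusted threshold, 0, became 1 (Hspa12a) with only probe sets above the median level, with trend and robust variance, with array weights and with the immediate early list mean as a covariate. Hspa12a changes in these settings were 2.25, 2.25, 2.32 and 2.37. Members with positive changes numbered 19 with only probe sets above the median level, where 60 members were left. The count of 13 at an unadjusted p under 0.05 ran from 7 to 12 when 1 animal was left out, with the share of all probe sets not counted. Of 521 values of 31 named members under the alternatives, 504 kept their direction and side of the threshold, 4 passed it (Hspa12a) and 13 changed sign. The sign changes were all of values near 0. With 1 animal left out, changes ran from -0.0702 to 0.22 for Dnajc22, -0.12 to 0.0554 for Hspa9, -0.0455 to 0.20 for Hspb3, -0.15 to 0.0025 for Hspa4, -0.0082 to 0.15 for Hsp90b1 and -0.0681 to 0.25 for Dnajb13. Hspa9 was at 0.0501 with the adipocyte and at 0.0044 with the immediate early covariate. The cause was not tested. The mean change of inducible members, -0.49, ran from -0.68 to -0.33 and that of constitutive members, -0.08, from -0.11 to -0.04. With the replicate number as a block, 0 members passed and 10 had an unadjusted p under 0.05, again with no share of all probe sets counted. Deviations of same-numbered animals correlated at -0.09, 0.08 and -0.07 over probe sets, and 2 of 6 animals correlated best with their own number. No pairing by number was thus seen over all probe sets, and a pairing in fewer genes was not tested. Averaging a gene's probe sets left every member's values as they were, since each has 1.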
